A study of Homo sapiens with 6 samples.

Results

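The 10 genes are AKR1B10, AKR1C1, AKR1C2, AKR1C3, PTGR1, NQO1, CBR1, EPHX1, HMOX1 and OSGIN1. They encode reductases and detoxification enzymes and, in OSGIN1, a growth inhibitor, and are known to respond to the transcription factor NRF2. They were selected on gene name, with the differences between the treated and untreated arrays described here already known, so their differences are given as a description. A transcript cluster, the set of probes that the array assigns to 1 transcribed locus, was used where the platform annotation gave it exactly 1 gene symbol, and rows at 0 on all 6 arrays were dropped. Of 11 rows for the 10 genes, 10 remained, 1 per gene, among 19291 tested clusters of 18372 genes, and the dropped row was one that the annotation ties to the RefSeq transcript of AKR1C1, so that the row used for this gene is annotated to a cDNA. The samples were HepG2 cells, an established human hepatoma line, either treated with a water extract of Barringtonia racemosa leaves at 50 µg/ml for 24 h (3 arrays, leaf-treated) or left untreated (3 arrays). No vehicle is named for the untreated cells, and both groups came from this 1 cell line. RNA was measured on Affymetrix Human Gene 1.0 ST arrays, and each value below is a log2 expression value.

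NRF2, encoded by NFE2L2, is normally held by KEAP1, which passes it to a CUL3 ubiquitin ligase for degradation. When electrophiles or oxidants modify KEAP1, NRF2 accumulates, pairs with small MAF proteins and binds antioxidant response elements near genes for NADPH-dependent reductases, conjugating enzymes and glutathione synthesis. BACH1 is a repressor that competes at such elements and is best known for holding back HMOX1. In hepatocytes this programme clears reactive aldehydes, quinones and epoxides that arise from metabolism and from plant compounds.

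The sequences before the start sites come first, as they were searched for the letters of the element that NRF2 binds. RefSeq windows of 300 bases, from 250 before to 50 after each annotated start (GRCh38.p14), were found for 8 of the 10 genes, in 11 windows. AKR1B10 and HMOX1 had none in the table. The letters TGACNNNGC, the core of the antioxidant response element, were searched on both strands. They occurred in 2 of the 11 windows (18.2%), in 1 of 3 windows of EPHX1 and in that of CBR1, against 13.3% of all 35116 windows. The letters TGANTCA of the AP-1 site, which can overlap the element, occurred in 1 of 11 windows, that of OSGIN1, against 7.71% of all windows. The windows of NQO1, PTGR1 and the AKR1C genes held neither. Elements outside the 300 bases were not searched, so a window without a match does not show that a gene lacks the element. A match is a description of letters and not a binding site. The matches are shown 5′ to 3′ on the strand of the gene with the matched letters in capitals, and that of GCLM, an NRF2 target outside the 10 genes, stands beside them for comparison.
EPHX1, chr1:225825261-225825299: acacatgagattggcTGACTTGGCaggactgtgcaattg
CBR1, chr21:36069850-36069888: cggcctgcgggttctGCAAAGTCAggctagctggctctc
OSGIN1, chr16:83953128-83953164: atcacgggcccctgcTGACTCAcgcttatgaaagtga
GCLM, chr1:93909441-93909479: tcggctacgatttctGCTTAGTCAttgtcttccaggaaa

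The AKR1C genes lie beside each other on chromosome 10 and share much of their upstream sequence. AKR1C1 and AKR1C2 had an identical run of 245 bases among the 250 bases before their starts. AKR1C3, with 2 annotated starts, was 76.8% and 79.1% identical to AKR1C1 over the aligned bases. The last 90 bases before the start are shown to make this likeness visible. For AKR1C3 only start 1 is shown, with 18 of the 90 bases unlike AKR1C1. At start 2, not shown, 29 of the 90 were unlike it. Capitals mark bases with no identical partner in the aligned 250 bases of AKR1C1.
AKR1C1, chr10:4963325-4963414: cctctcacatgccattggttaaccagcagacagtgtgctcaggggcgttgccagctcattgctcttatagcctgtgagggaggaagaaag
AKR1C2, chr10:5003858-5003947: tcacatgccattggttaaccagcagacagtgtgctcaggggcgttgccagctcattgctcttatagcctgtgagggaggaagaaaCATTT
AKR1C3, chr10:5048691-5048780: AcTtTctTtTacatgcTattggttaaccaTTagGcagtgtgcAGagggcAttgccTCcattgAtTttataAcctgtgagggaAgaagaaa

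The arrays were comparable but not alike. The median over tested clusters was 3.75 to 3.83 on leaf-treated arrays and 3.71 to 3.74 on untreated arrays. Leaf-treated array 2 was closer to the untreated arrays, with a mean correlation across clusters of 0.992, than leaf-treated arrays 1 and 3 (0.987 and 0.986). With the other leaf-treated arrays, the mean correlation was 0.988, 0.987 and 0.987 for arrays 1, 2 and 3. Results that rest on array 2 are therefore given with and without it. In 41.1% of tested clusters a value repeated to the last deposited decimal on at least 2 arrays, which happened for EPHX1, CBR1 and OSGIN1 among the 10 genes. The arrays carry no detection call, so olfactory receptor genes, which a hepatoma line is not known to use, stood in for background, and their 95th percentile was 3.25 to 3.49 on leaf-treated and 3.22 to 3.35 on untreated arrays. Of 10 hepatocyte markers 9 were measured, at 7.61 to 11.4 on leaf-treated and 7.81 to 11.5 on untreated arrays.

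Across the 10 genes, 9 were lower and 1, OSGIN1, was higher in mean after the leaf extract, with a median log2 difference of -0.27 against 0.01 over all tested clusters. AKR1B10 and PTGR1 were at 45.7% and 47.7% of their untreated level, AKR1C2 and EPHX1 at 71.0% and 73.0%, and HMOX1 and OSGIN1 at 94.1% and 105%. In the limma fit over all clusters with Benjamini-Hochberg adjustment, 0 of the 10 genes had an adjusted p under 0.05 (adjusted p = 0.21 to 0.76), and 0.00518% of all clusters did, which is 1 cluster, ID2. At an unadjusted p under 0.05 alone, 6 of the 10 were lower, where 5.90% of all clusters were, and 0 higher, where 3.87% were. The design text of the series asks for at least 1.5 fold with an unadjusted p under 0.05, and 2 of the 10, AKR1B10 and PTGR1, passed this, both lower. Of all clusters 0.570% passed it as lower and 0.270% as higher, which is 110 and 52 clusters, against 189 and 30 after centring on array medians and 80 and 63 after quantile normalization. All 3 leaf-treated values lay below all 3 untreated values for 6 of the 10 genes, where the same was true of 7.41% of all clusters, and above them for 0, where the share was 6.14%. Since the genes were picked with this comparison known, nothing is read from these counts. In RNA from whole cultures, fewer cells of a kind and less RNA per cell cannot be told apart.

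**Figure D1:**
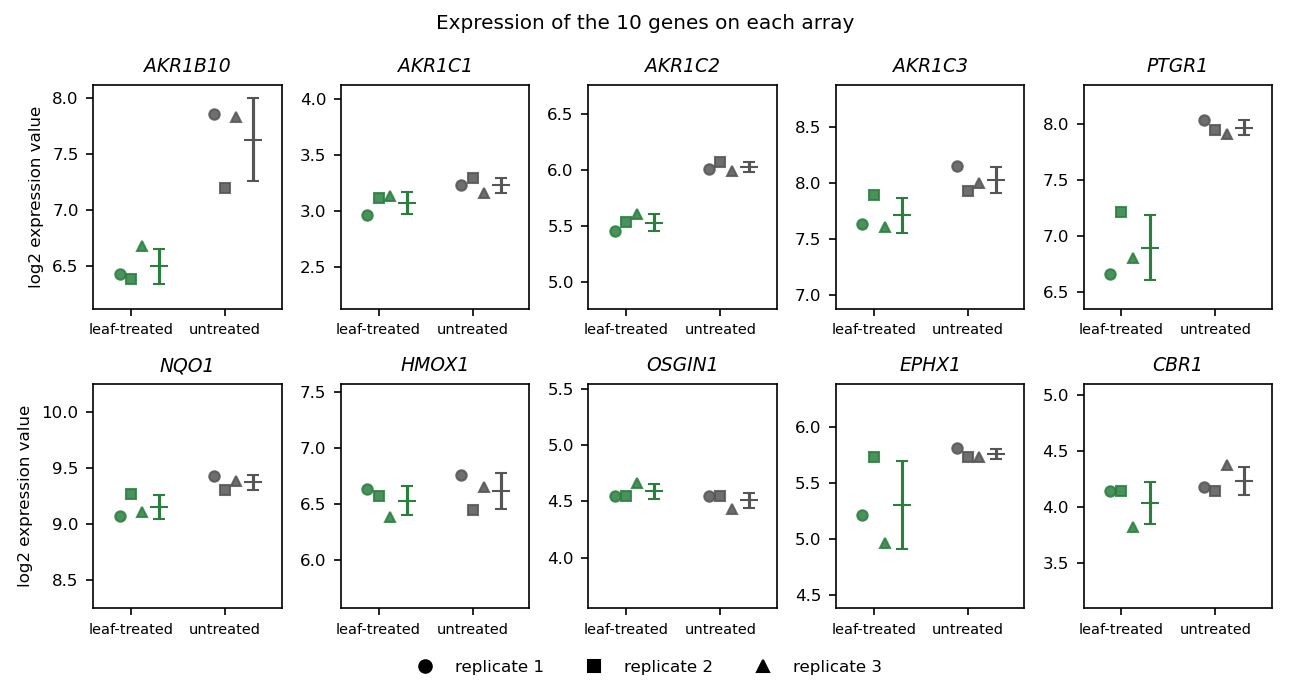
Log2 expression value of each gene (y axis, 2 log2 units in every panel) on the 3 leaf-treated arrays (left, green) and the 3 untreated arrays (right, grey), with a marker for each replicate and the mean and SD beside them. The groups are apart in AKR1B10, AKR1C1, AKR1C2, AKR1C3, PTGR1 and NQO1, and overlap or meet in the other 4.

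Each of the 4 aldo-keto reductases was lower on every leaf-treated array than on any untreated array, as were 7.41% of all clusters. AKR1C1 was at a level near background, and the genes were picked with this comparison known. AKR1B10, which reduces retinal and other aldehydes with NADPH, had values of 6.43, 6.39 and 6.68 on leaf-treated arrays, against 7.86, 7.20 and 7.83 on untreated arrays. The leaf-treated arrays were all low, while the untreated arrays were spread, array 2 lying closer to the treated ones. Leaf-treated minus untreated gave -1.13 on the log2 scale (standard error 0.19, 95% interval -1.59 to -0.67, adjusted p = 0.33 from limma), with means of 6.50 ± 0.16 in leaf-treated and 7.63 ± 0.37 in untreated cells (SD, n = 3 each). The difference was -1.34 without untreated array 2 and -1.07 without leaf-treated array 2.

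AKR1C2, which reduces dihydrotestosterone and other steroids, differed by less than AKR1B10 but with little spread. Its values were 5.45, 5.53 and 5.60 on leaf-treated arrays, against 6.01, 6.07 and 5.99 on untreated arrays. The 2 groups each spanned less than the gap between them. This was a log2 difference of -0.49 (standard error 0.07, 95% interval -0.66 to -0.33, adjusted p = 0.21 from limma), a change of 1.41 fold that stayed short of the 1.5 fold of the series' design. It was -0.496 without leaf-treated array 2, so that array changed little here.

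AKR1C3, which forms testosterone and prostaglandin F from their keto precursors, had values of 7.63, 7.89 and 7.60 on leaf-treated arrays, against 8.15, 7.93 and 7.996 on untreated arrays. Leaf-treated array 2 reached to just below the lowest untreated array. The log2 difference was -0.32 (standard error 0.10, adjusted p = 0.498 from limma), and without leaf-treated array 2 it was -0.41. AKR1C1, a reductase of progesterone, had values of 2.96, 3.11 and 3.13 on leaf-treated arrays, against 3.23, 3.30 and 3.16 on untreated arrays. These lie in the range of the olfactory receptor clusters, and on every leaf-treated array AKR1C1 was below their 95th percentile. The log2 difference of -0.16 (standard error 0.08, 95% interval -0.35 to 0.03) is one of a signal near background, and it was -0.10 without leaf-treated array 1. Cross-hybridisation among the AKR1C copies was not tested.

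PTGR1, a reductase that inactivates leukotrienes and reactive alkenals, showed the other large difference. It had values of 6.67, 7.22 and 6.81 on leaf-treated arrays, against 8.04, 7.95 and 7.91 on untreated arrays. Here the untreated arrays lay close together, and leaf-treated array 2 was the highest of its group while still below each untreated array. The log2 difference was -1.07 (standard error 0.14, 95% interval -1.42 to -0.72, adjusted p = 0.21 from limma), with means of 6.90 ± 0.29 in leaf-treated and 7.97 ± 0.07 in untreated cells (SD, n = 3 each). It was -1.23 without leaf-treated array 2 and -0.75 with array 2 as the only leaf-treated array. After quantile normalization PTGR1 alone of the 10 genes passed the adjustment (log2 difference -0.95, adjusted p = 0.037 from limma), and its adjusted p over all alternatives ran from 0.037 to 0.82.

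NQO1, the quinone reductase often taken as the standard readout of NRF2, differed far less. Its values were 9.08, 9.27 and 9.11 on leaf-treated arrays, against 9.43, 9.31 and 9.38 on untreated arrays. The groups did not overlap, but leaf-treated array 2 was just below the lowest untreated array. The log2 difference was -0.22 (standard error 0.08, 95% interval -0.41 to -0.03, adjusted p = 0.51 from limma), and -0.28 without leaf-treated array 2. CBR1, a carbonyl reductase of quinones and prostaglandins, was at 4.14, 4.14 and 3.82 on leaf-treated arrays, against 4.18, 4.14 and 4.37 on untreated arrays. The value 4.14175 was the same on 3 arrays, from both groups, so the groups met there. Its log2 difference of -0.20 (standard error 0.12, 95% interval -0.47 to 0.08) had an interval that included 0, and it was -0.09 without leaf-treated array 3 and -0.13 without untreated array 3.

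EPHX1, the microsomal epoxide hydrolase, had the widest spread of the 10 genes among leaf-treated arrays (SD 0.39). It had values of 5.21, 5.73 and 4.96 on leaf-treated arrays, against 5.80, 5.73 and 5.73 on untreated arrays. Leaf-treated array 2 had the same deposited value, 5.72963, as untreated arrays 2 and 3, while leaf-treated arrays 1 and 3 were well below all untreated arrays. On the log2 scale the difference was -0.45 (standard error 0.19, 95% interval -0.90 to -0.00427, adjusted p = 0.51 from limma). Without leaf-treated array 2 it was -0.67 and passed the thresholds of the series' design, and with array 2 as the only leaf-treated array it was -0.03. It was -0.28 without leaf-treated array 3.

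HMOX1 and OSGIN1 had the smallest differences of the 10. HMOX1, which breaks down haem to biliverdin, carbon monoxide and iron, had values of 6.63, 6.57 and 6.39 on leaf-treated arrays, against 6.76, 6.44 and 6.65 on untreated arrays. The groups overlapped, and the log2 difference was -0.09 (standard error 0.11, 95% interval -0.35 to 0.17). It turned to 0.04 after quantile normalization and ran from -0.17 without untreated array 2 to -0.02 without leaf-treated array 3 or untreated array 1, and it was -0.14 without leaf-treated array 1. OSGIN1, named for growth inhibition under oxidative stress, had values of 4.55, 4.55 and 4.66 on leaf-treated arrays, against 4.55, 4.55 and 4.44 on untreated arrays. The value 4.55097 was the same on 4 of the 6 arrays, 2 of each group. The log2 difference was 0.08 (standard error 0.07, 95% interval -0.09 to 0.25), an interval that stays inside 1.5 fold and is formed from these repeated values. It was 0.04 without array 3 of either group.

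**Figure D2:**
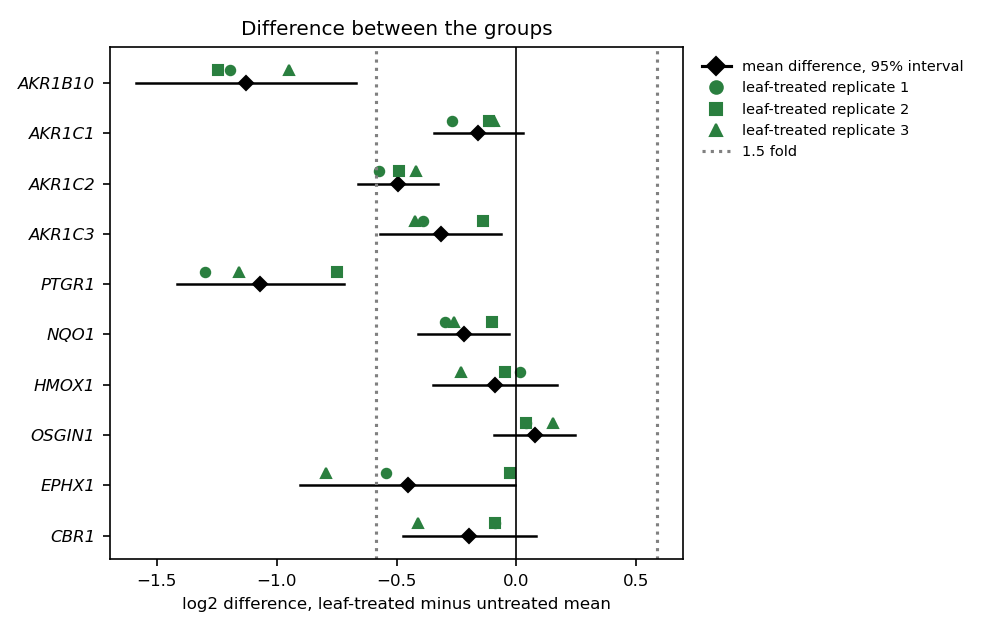
Log2 difference of leaf-treated minus untreated for each gene (x axis), with the mean difference and its 95% interval from limma (black), each leaf-treated array minus the untreated mean (green markers, just above) and dotted lines at 1.5 fold. AKR1B10 and PTGR1 lie beyond 1.5 fold with their whole intervals, and replicates 1 and 2 coincide for OSGIN1 and CBR1.

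The leaf-treated arrays differed in how far they lay from the untreated mean. The median over the 10 genes was -0.34 on array 1, -0.11 on array 2 and -0.42 on array 3, while over all tested clusters it was between 0 and 0.00185 on the 3 arrays. On array 1, 7 genes were below the untreated range, on array 2 6 and on array 3 9. The share of all clusters below that range on a single array was not computed. As the genes were also picked with this comparison known, nothing is read from these counts. Array 2 had about the same distance as the others in AKR1B10 (-1.24) and AKR1C2 (-0.49) and a smaller one in PTGR1 (-0.75), AKR1C3 (-0.14), NQO1 (-0.10) and EPHX1 (-0.03). The distance of array 2 from the other leaf-treated arrays thus varied with the gene. The cause of the standing of array 2 was not tested.

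**Figure D3:**
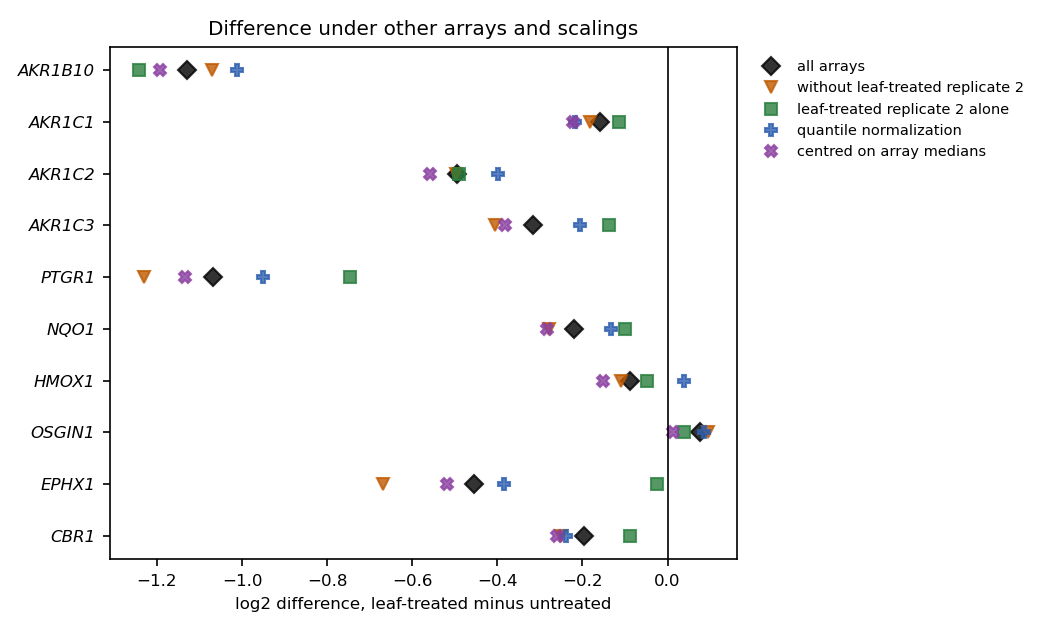
Log2 difference of leaf-treated minus untreated (x axis) for each gene with all arrays, without leaf-treated array 2, with array 2 as the only leaf-treated array and after 2 other scalings. AKR1B10, AKR1C2 and PTGR1 stay between -1.24 and -0.40 in each, EPHX1 ranges from -0.67 to -0.03, and HMOX1 crosses 0 after quantile normalization.

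The regulators of the pathway were measured on the same arrays, 11 of the 12 asked for. By limma 0 passed either rule. At an unadjusted p under 0.05 1 was lower and 1 higher, beside 5.90% and 3.87% of all clusters. NFE2L2, the gene of NRF2 itself, had values of 8.63, 8.74 and 8.73 on leaf-treated arrays, against 9.22, 9.04 and 9.21 on untreated arrays. All leaf-treated arrays, array 2 included, lay below the untreated ones, and the log2 difference was -0.45 (standard error 0.08, adjusted p = 0.33 from limma). KEAP1, which holds NRF2 for degradation, had a log2 difference of -0.21 (standard error 0.097), and leaf-treated array 2 was level with an untreated array at 5.70. BACH1 differed by -0.16 (standard error 0.09), with groups that overlapped. Of the small MAF partners, MAFG had a log2 difference of -0.29 (standard error 0.12) without overlap and MAFF of 0.10 (standard error 0.09) at a level near background. CUL3, the scaffold of the ligase, differed by -0.14 (standard error 0.06). SYVN1, a ligase of the endoplasmic reticulum that is also reported to act on NRF2, was the 1 regulator of the 11 with all leaf-treated arrays above the untreated ones, and its log2 difference was 0.31 with a standard error of 0.09 (adjusted p = 0.47). Leaf-treated arrays lay apart from the untreated ones in 3 regulators as lower and 1 as higher, beside 7.41% and 6.14% of all clusters. The median over the regulators was -0.14, and it was -0.06 after quantile normalization.

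Of 25 other NRF2 targets measured, 21 were below and 4 above 0 in mean, where 9027 of all clusters were below and 10264 above. All clusters include many near background, and of the 9 hepatocyte markers measured 8 were also below 0 and 1 above, with a median of -0.09. Among these markers 0 were lower at an unadjusted p under 0.05. Of 5 other aldo-keto reductases 3 were below and 2 above 0, and of 13 paralogs and partner enzymes 9 and 4. In the pathway of the aryl hydrocarbon receptor AHR 3 genes were below and 4 above 0. Whether the lean below 0 differs between lists was not tested. The median log2 difference of the 25 targets was -0.16. It became -0.24 without leaf-treated array 2, -0.10 without leaf-treated array 3 and -0.08 after quantile normalization, and was -0.03 on array 2 alone. At an unadjusted p under 0.05, 6 were lower and 1 higher, beside 5.90% and 3.87% of all clusters. None had an adjusted p under 0.05 from limma (adjusted p = 0.19 to 0.98). The groups were apart with leaf-treated arrays lower in 8 of the 25 and higher in 1, beside 7.41% and 6.14% of all clusters. GCLM, which encodes the modifier subunit of glutamate-cysteine ligase, had values of 5.01, 4.88 and 4.90 on leaf-treated arrays, against 5.54, 5.43 and 5.54 on untreated arrays. Its log2 difference was -0.58 (standard error 0.07), close to 1.5 fold. SLC7A11, the cystine transporter that supplies cysteine for glutathione, was the 1 target whose leaf-treated arrays were all above the untreated ones. It had values of 8.50, 8.75 and 8.43 on leaf-treated arrays, against 7.80, 7.77 and 7.78 on untreated arrays. It was the 1 listed target past 1.5 fold and p, with a log2 difference of 0.78 (standard error 0.095). TXN, thioredoxin, had a log2 difference of -0.38 (standard error 0.08), UGDH, which makes UDP-glucuronic acid, of -0.31 (standard error 0.07) and MGST1, a microsomal glutathione transferase, of -0.47 (standard error 0.14), each without overlap. Of the 29 targets listed, measured or not, 19 had promoter windows. The letters TGACNNNGC were in 10 of these 23 windows (43.5%), GCLM among them, against 13.3% of all windows. As the list was made of known NRF2 targets, nothing is read from this share.

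Relatives of the 10 genes and enzymes that work beside them were read as well. Of 5 other aldo-keto reductases measured, 3 were below and 2 above 0 in mean, with a median log2 difference of -0.03 that ran from -0.10 to 0.06 when 1 array was left out. AKR7A2, an aflatoxin aldehyde reductase, differed by -0.25 (standard error 0.098), AKR7A3, of the same subfamily, by 0.25 (standard error 0.19), and AKR1D1, a bile acid reductase, by -0.03 (standard error 0.10). Leaf-treated arrays 1, 2 and 3 lay -0.09, 0.67 and 0.18 from the untreated mean in AKR7A3, so its difference rests mainly on array 2. AKR1C4, the liver form next to AKR1C3, was at background with 2.72, 2.75 and 2.59 on leaf-treated arrays, against 2.67, 2.77 and 2.84 on untreated arrays. AKR1E2 was higher without overlap, as were 6.14% of all clusters, at a level close to background, by 0.22 (standard error 0.09). Among 13 paralogs and partner enzymes, of which BLVRB and CBR3 are also listed as NRF2 targets, 9 were below and 4 above 0 in mean, with a median of -0.06 that ran from -0.11 to -0.01 when 1 array was left out. By limma 0 passed either rule, 0 had an unadjusted p under 0.05, and in 0 were the groups apart. Of all clusters 5.90% were lower and 3.87% higher at this p. PTGR3 differed by -0.42 (standard error 0.22) and PTGR2 by 0.12 (standard error 0.07), beside -1.07 for PTGR1. EPHX2, the soluble epoxide hydrolase, differed by -0.36 (standard error 0.17). POR, which passes electrons to cytochrome P450 enzymes, differed by -0.21 (standard error 0.12), and BLVRB, which reduces biliverdin, by 0.25 (standard error 0.11).

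**Figure D4:**
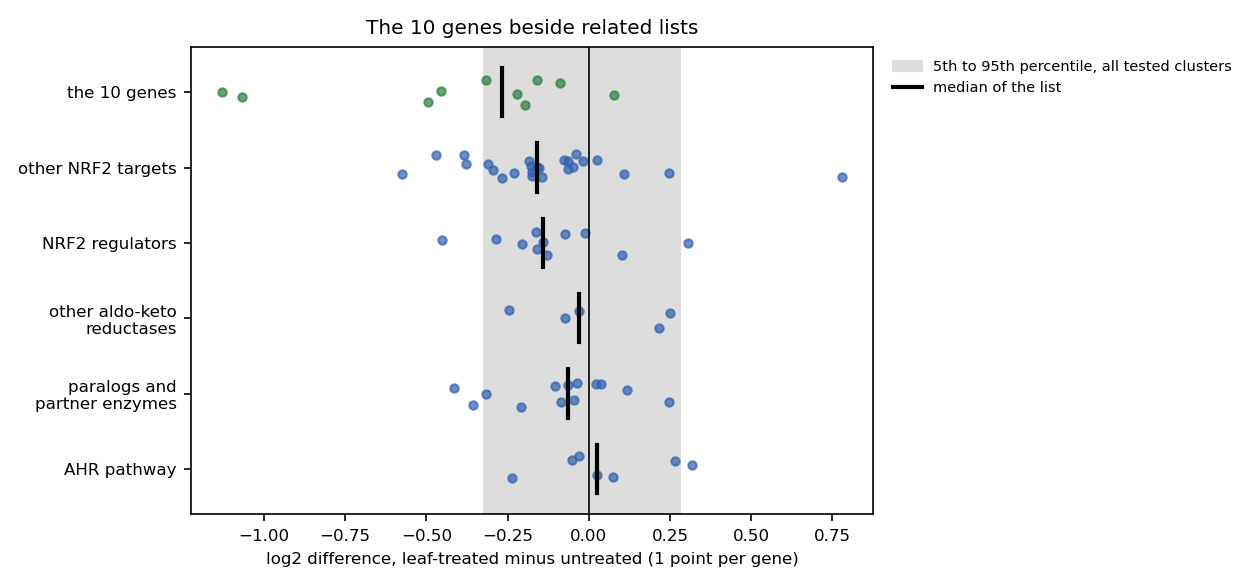
Log2 difference of leaf-treated minus untreated (x axis), 1 point per gene, for the 10 genes and 5 related lists (y axis), with each list's median as a bar and the 5th to 95th percentile of all tested clusters, -0.32 to 0.28, in grey. AKR1B10 and PTGR1 lie farthest to the left, and SLC7A11 at 0.78 farthest to the right.

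Markers of other cell types were also read, and 0 passed either rule. Of 6 markers of squamous cell lines 4 were measured, and 4 of 4 were higher in mean after the leaf extract, with a median log2 difference of 0.24. The sum of their log2 values was 16.80 to 17.80 on leaf-treated and 16.43 to 16.76 on untreated arrays, the lowest leaf-treated sum being that of array 2. KRT5 and KRT14 were at 3.14 to 3.60 and 3.87 to 4.46 on leaf-treated arrays, against 3.10 to 3.37 and 3.71 to 3.997 on untreated arrays. KRT5 was near background, at 3.49, 3.14 and 3.60 on leaf-treated arrays 1, 2 and 3. The olfactory receptor 95th percentile on these arrays was 3.42, 3.25 and 3.49, also lowest on array 2. SFN, the squamous marker with the highest level, differed by 0.07. The summed fibroblast markers, 6 of 6 measured, were at 19.1 to 20.1 on leaf-treated and 18.7 to 19.5 on untreated arrays. Blood cell markers, 4 of 5 measured, summed to 19.4 to 20.0 on leaf-treated and 19.0 to 19.5 on untreated arrays. LYZ was at 10.5 to 10.6 on leaf-treated and 10.3 to 10.6 on untreated arrays, while PTPRC was at background on each, and none of the markers measured was at 0. The part of these markers in the differences of the 10 genes was not tested.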

How the data were processed

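Values came as 1 table of RMA results, in which the authors deposited log2 expression for 6 Affymetrix Human Gene 1.0 ST arrays. GCOS and Partek are also named in the submitters' processing notes, with no versions. RMA corrects background, makes arrays comparable and combines probes, while its settings are not stated in any source used here. The labels call the replicates biological without naming cultures, so p-values reflect the spread of these arrays, which may be technical, and 3 arrays a group limit the precision. No scan date or other batch was used here.

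Of 33297 rows, 4468 at 0 on every array were left out. Rows with 1 symbol were tested (19291), those with several (1735) or none (7803) were not. The comparison used limma 3.58.1 (lmFit, eBayes) in R 4.3.3, 2-sided, without a covariate, with Benjamini-Hochberg adjustment over the tested clusters and 95% intervals from the same fit, which was tested on simulated data. List genes were read from their cluster with the highest mean. The 10 genes and all lists were chosen with earlier results of these data known. Named besides the 10 were up to 5 genes of each list with the smallest p, genes past either rule, and NFE2L2, KEAP1, BACH1 and the small MAF genes. Promoters came from RefSeq (GRCh38.p14), and upstream sequences were aligned with Biopython. Proteins were not analysed here. Alternatives were other scalings, filters, variance models and tests, the replicate block and leaving out each array. The value with leaf-treated array 2 as the only treated array was added after seeing the data.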

Additional observations from a re-analysis of the deposited data

How the results depend on the processing

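The 10 genes kept their direction in the alternatives run for them, the filter on dim clusters being run for 9 since it removes AKR1C1, except HMOX1, whose log2 difference was 0.0381 after quantile normalization. AKR1B10 and PTGR1 passed the thresholds of the series' design in each alternative with a test, and 2 to 3 of the 10 genes passed as lower when 1 array was left out, EPHX1 being the third without leaf-treated array 2. The number of the 10 with an adjusted p under 0.05 from limma was 0, and 1 after quantile normalization. Over all clusters, calls by adjusted p numbered 1, and 8 after quantile normalization, 3 after centring on array medians, 4 without dim clusters, 2 with an intensity trend and robust fit, 3 with array weights, 0 by the methods' t-test, 2 over all rows above 0, 2 with the clusters of a gene averaged and 0 to 0 when 1 array was left out. Clusters past the series' thresholds numbered 110 lower and 52 higher, 189 lower and 30 higher after centring, 68 and 33 by the methods' t-test, 82 higher with array weights, 88 higher over all rows above 0, and 68 to 323 lower and 41 to 167 higher when 1 array was left out, the highest counts without leaf-treated array 2. The median of the NRF2 regulators was -0.0575 after quantile normalization and -0.21 after centring, and that of the AHR pathway was 0.0668, -0.0393 and, without dim clusters, 0.0494. The causes of these shifts were not tested.

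With the replicate number as a block (replicate block), 0 clusters were called and AKR1B10 and PTGR1 still passed the series' thresholds. Arrays of the same number did not deviate together, with correlations of their deviations of -0.11, -0.18 and 0.12, so the numbers were not taken to pair the samples. The value of EPHX1 rests on which leaf-treated arrays are used, and signal near background limits AKR1C1, AKR1C4, AKR1E2 and MAFF.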

Other observations

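NQO1 also answers to the aryl hydrocarbon receptor AHR, a sensor of planar aromatic compounds, and 7 of 10 genes of that pathway were measured. By limma 0 passed either rule, and their median log2 difference was 0.03. At an unadjusted p under 0.05 1 was lower and 0 higher, beside 5.90% and 3.87% of all clusters. CYP1A1, the P450 enzyme most readily induced through AHR, had values of 3.26, 3.82 and 3.41 on leaf-treated arrays, against 3.14, 3.21 and 3.20 on untreated arrays. The groups did not overlap, with leaf-treated arrays higher, as in 6.14% of all clusters. The log2 difference was 0.32 (standard error 0.14, adjusted p = 0.51 from limma). Leaf-treated arrays 1, 2 and 3 lay 0.08, 0.64 and 0.24 above the untreated mean, so much of the difference rests on array 2. CYP1A2 differed by 0.27 (standard error 0.15) with overlap. TIPARP, a feedback inhibitor of AHR, differed in the opposite direction by -0.24 (standard error 0.09), and AHR itself by -0.05 (standard error 0.10). CYP1A1 and CYP1A2 lie near the olfactory receptor background, so the size of their differences is uncertain.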
